A study of Drosophila melanogaster with 3 samples.

Results

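The genes described here are the DNA replication genes of Drosophila melanogaster: the subunits of the origin recognition complex, the replicative helicase, the clamp and its loader, the replicative polymerases and primase and the single-strand binding protein, together with the regulators that open S phase. They were chosen by symbol from the protein-coding genes of the Ensembl BDGP6 annotation by a rule that uses no measured value, though the set itself was proposed with earlier results of these data known. The rule gave 45 genes of the 13968 protein-coding genes on the chromosome arms. One of them, Cdc45, was found through its older symbol CDC45L. Binding of ind, a homeodomain transcription factor of the early nerve cord, was mapped by ChIP-seq, in which chromatin fragments held by a protein are precipitated and sequenced. All samples formed 1 group of 3 biological replicates, each a separate biosample: whole embryos of both sexes together, aged 0 to 16 hours, from a transgenic line in which ind carries GFP at its C-terminus, precipitated with an antibody against GFP. There was no second genotype, treatment or time, so values are given against all protein-coding genes or all peaks, as descriptions with no test.

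A chromosome is licensed for replication when the origin recognition complex (Orc1 to Orc6), Cdc6 and Cdt1, the product of dup (double parked), load the ring of Mcm2 to Mcm7 onto DNA. The fly gene dpa (disc proliferation abnormal) encodes Mcm4, and geminin encodes the inhibitor of Cdt1. In S phase the kinase Cdc7 and cyclin-dependent kinase activate the ring, which is joined by Cdc45 and the GINS complex of Sld5, Psf1, Psf2 and Psf3. Primase with polymerase alpha begins each strand, the clamp loader RFC places the PCNA ring, polymerases delta and epsilon extend the strands, and RPA covers single-stranded DNA. In flies many of these genes are transcribed from promoters with sites for E2F, a pair of E2f1 or E2f2 with Dp, and with the DNA replication-related element (DRE), the word TATCGATA bound by Dref. E2f1 activates such genes and E2f2 acts mainly as a repressor.

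Each step of this pathway had genes with a peak of ind-eGFP, and each but the regulators of S phase entry had genes without one. The authors' optimal list holds 5809 peaks in the genome build dm6, and a gene was counted when a summit of that list fell within the gene or the 2000 bp before it. By that count 21 of the 45 replication genes had a peak (46.7%), beside 34.2% of all protein-coding genes. All 4 of the regulators of S phase entry had a peak (CycE, Dp, E2f1 and E2f2), as did 4 of 6 subunits of the MCM ring (Mcm2, Mcm3, Mcm5 and dpa, not Mcm6 or Mcm7). Of the 9 genes of origin recognition and licensing, dup and geminin had a peak, while Cdc6 and all of Orc1 to Orc6 had none. The helicase partners had a peak at 3 of 7 genes (Cdc7, Psf1 and Psf3, not Cdc45, Mcm10, Psf2 or Sld5). The clamp and loader had a peak at 2 of 6, the clamp gene PCNA and its relative PCNA2, with none at the loader genes Gnf1, RfC3, RfC38 and RfC4. The polymerase and primase genes had a peak at 5 of 10 (PolA1, PolD2, PolE1, PolE4 and Prim1, not PolA2, PolD1, PolD3, PolE2 or Prim2), and the RPA genes at 1 of 3 (RPA1, not RPA2 or RPA3). These groups hold 3 to 10 genes, and the shares of the clamp and loader and of RPA were near that of all genes. A counted peak could stand nearest to the start of a neighbour, as described below.

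The share was close to the same in each replicate. Among the 5809 strongest summits of each replicate, as many as the optimal list holds, 46.7% of the replication genes had a summit in replicate 1, 44.4% in replicate 2 and 44.4% in replicate 3, or 45.2% ± 1.28 (SD, n = 3). For all protein-coding genes the shares were 34.9%, 33.0% and 34.6%, or 34.2% ± 0.987 (SD, n = 3). The replication genes lay above all genes in each of the 3 replicates. The SD comes from calls repeated at the same 45 genes, so it does not measure how uncertain a share over 45 genes is. Gene length differed as well: the replication genes with a peak had a median length of 2884 bp and those without 1749 bp. Within the interquartile range of the replication genes' lengths, 1387 to 3444 bp, 8 of 23 replication genes had a peak (34.8%), beside 31.0% of all protein-coding genes of those lengths, a share near the background. E2f1, the longest of the 45 at 40568 bp, alone held 4 peaks.

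**Figure D1:**
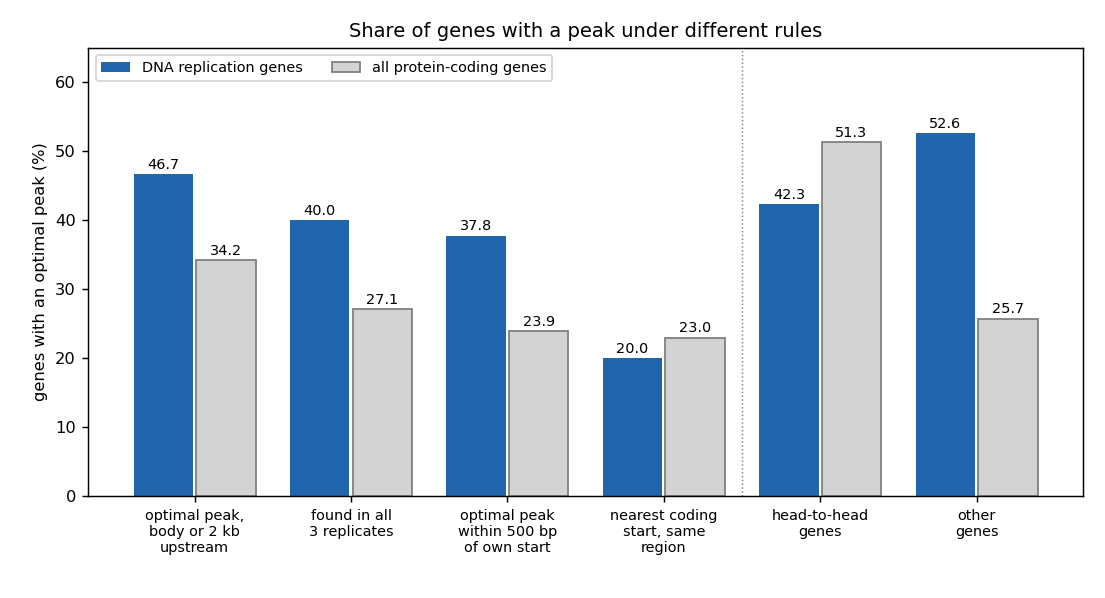
Share of DNA replication genes (blue, left bar of each pair) and of all protein-coding genes (grey, right bar), in percent, that had an optimal peak under each rule. Right of the dotted line the genes are divided by whether another coding gene starts head to head within 1000 bp. Replication genes lie above all genes under the main rule (46.7% and 34.2%), but not where a peak in the same region counts only for the nearest coding start (20.0% and 23.0%) or among head-to-head genes (42.3% and 51.3%).

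The 21 genes shared 29 distinct peaks, since 1 peak stood between Mcm2 and RPA1 and was counted for both. Of the 29 peaks, 23 lay within 500 bp of an annotated start (79.3%), beside 48.1% of all optimal peaks. A further 5 lay in introns and 1 between genes. By the same measure as above, 24 of the 29 were found in all 3 replicates, with a summit within 200 bp among each replicate's strongest 5809 (82.8%, beside 70.1% of all optimal peaks). Of the 23 promoter peaks 18 were (78.3%, beside 74.1% of all optimal promoter peaks), a share near the background. The signal of each peak is the authors' own, and is given here as a relative signal, divided by the median of the optimal list. Its median over the 29 peaks was 1.37, with a lowest value of 0.551 and a highest of 4.90. In the replicates, where each peak was divided by the median of the matched peaks, the medians were 1.27, 1.35 and 1.26. The median of the 23 promoter peaks was 1.08, beside 1.13 for all optimal promoter peaks, so the height of these promoter peaks was near that of promoter peaks elsewhere. In the strongest 10% of the list stood 2 of the 29 peaks (6.90%), beside 9.98% of all peaks. Counted by gene, 18 of the 45 had a peak found in all 3 replicates (40.0%, beside 27.1% of all protein-coding genes). A promoter peak was counted for 19 (42.2%, beside 28.4%) and a peak outside promoters for 5 (11.1%, beside 10.8%), so that the difference lay in promoter peaks.

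The regulators of S phase entry carried 11 of the 29 peaks. Dp, the partner of both E2F proteins, had the strongest peak at any of the 45 genes, with a relative signal of 3.22, 5.21 and 5.52 in replicates 1, 2 and 3 (4.65 ± 1.25, SD, n = 3). It stood in an intron, 946 bp into the gene and 212 bp before an internal start of Dp, and ranked 157 of 5809. Replicate 1 was the lowest there, but even that value was above those of any other peak of the 45 genes in any replicate. Dp had a further peak at 418 bp past the same internal start (1.49) and one near its first start (1.37), where the start of the neighbour Fsn was 46 bp away. CycE, the cyclin that with Cdk2 drives entry into S phase, had a pair of intronic summits around 1 kb into the gene. Both lay before an internal start of CycE, the stronger by 408 bp, so that it counted as a promoter peak, and the weaker by 626 bp. The stronger had 2.10, 2.35 and 2.46 in replicates 1, 2 and 3 (2.30 ± 0.185, SD, n = 3), and the weaker 1.64, 1.44 and 1.49 (1.52 ± 0.107). The stronger summit was the higher of the pair in every replicate, and all values lay above 1.00, the median of the matched peaks.

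E2f1 and E2f2 differed in where their peaks stood. E2f1, the activator, had summits in its introns 3873 bp and 32901 bp from its first start, with relative signals of 1.44 and 1.45, and a weaker one (0.705) beside an internal start. The remaining peak (0.908) lay 1756 bp upstream, 345 bp past the start of Archease. E2f2, the repressor, was counted for a strong peak 1926 bp upstream of its start with 2.36, 2.59 and 2.70 in the 3 replicates (2.55 ± 0.176, SD, n = 3). That summit stood 64 bp from the start of Coq3, an enzyme gene of coenzyme Q synthesis, and thus near the limit of 2000 bp. The other peak of E2f2 was the weakest of the 29 (0.551) and was found only in replicate 3. It stood 10 bp from the start of Mpp6 and 46 bp from a start of E2f2 itself.

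**Figure D2:**
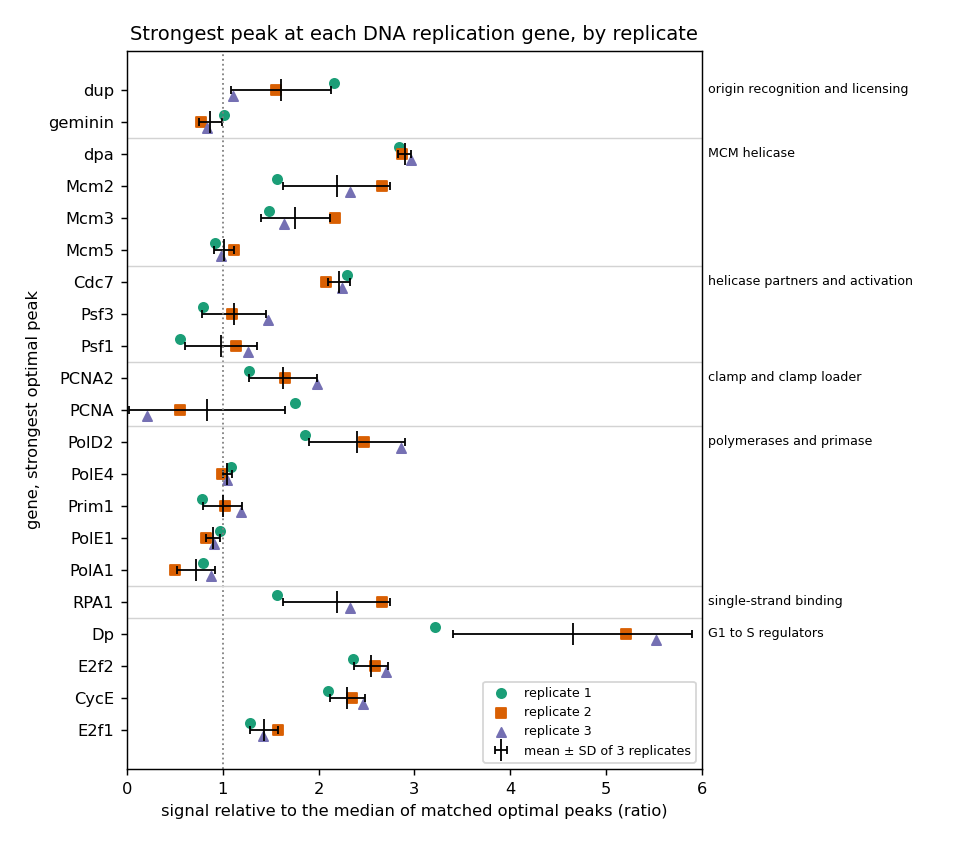
Relative signal (ratio to the median of matched optimal peaks, linear axis) of the strongest optimal peak at each of the 21 replication genes that had one, in replicates 1 to 3, with the mean and SD as black bars. Genes run down the page by step of the pathway. Mcm2 and RPA1 show the same peak, Dp is highest at 4.65 ± 1.25, and the peak of PCNA spreads widest for its height, from 0.209 to 1.75.

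In the MCM ring the strongest peak was that of dpa, with a relative signal of 2.84, 2.87 and 2.97 in replicates 1, 2 and 3 (2.90 ± 0.0675, SD, n = 3). The 3 values were almost equal, and the summit ranked 515 of 5809. It lay 153 bp inside the gene, just before a later start of dpa, whose first start stood 2 bp from that of the neighbour didum on the other strand. The Mcm2 peak had 1.57, 2.66 and 2.33 (2.19 ± 0.556), lower in replicate 1 than in the others. Its summit was 100 bp upstream of Mcm2 and 419 bp upstream of RPA1, the large subunit of RPA, and the starts of these genes face away from each other 519 bp apart. The peaks of Mcm3 (1.84) and Mcm5 (1.06) stood closer to neighbours, 82 bp from the start of Rnp4F and 38 bp from that of Art1. Mcm3 itself began 1077 bp away. Mcm6 and Mcm7 had only weak summits near their starts: Mcm6 ranked 12623, 9570 and 21952 in the full replicate lists, and Mcm7 ranked 9453 and 15990 in replicates 1 and 2 with none in replicate 3.

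Among the licensing genes the peaks were at the genes for Cdt1 and its inhibitor. The stronger peak at dup had 2.16, 1.56 and 1.11 in replicates 1, 2 and 3 (1.61 ± 0.525, SD, n = 3), highest in replicate 1. It lay 29 bp from a start of SRPK, a splicing kinase gene, and both peaks of dup had a start of SRPK nearest. geminin had 1.01, 0.774 and 0.835 (0.872 ± 0.122), below the median peak of the list in replicates 2 and 3, at 35 bp from one of its own starts. The 6 origin recognition genes had no optimal peak, and what they had in the longer relaxed lists was low. Orc1, the largest subunit, ranked 9748, 8637 and 5812, with summits at -9, -258 and -46 bp from its start. Orc2 ranked 11159, 13237 and 8472. Orc3, Orc4 and Orc5 had a summit in replicate 1 only, at ranks 8414, 11991 and 8070. Orc6 ranked 6442 in replicate 1 and 8284 in replicate 3, both over 1 kb upstream, and Cdc6 ranked 14497 in replicate 1 and 18505 in replicate 3.

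The kinase gene Cdc7 carried the strongest peak of the helicase partners, in an intron 1729 bp from its start, with 2.30, 2.08 and 2.24 (2.21 ± 0.114, SD, n = 3), nearly level over the replicates. A weaker peak at its start (0.709) had 1.08, 0.635 and 0.558. Psf1 and Psf3, both GINS subunits, were counted for peaks nearer to other genes. The peak of Psf1 (1.08) was 53 bp from the start of Sac1, and was missing from the strongest list of replicate 1. That of Psf3 (1.22) lay 1989 bp upstream, inside an intron of flw. Cdc45 had no optimal peak but a summit beside its start in every replicate at nearly the same rank, 6931, 6233 and 6578, just past the 5809 of the optimal list. Mcm10 ranked 6679, 8615 and 11136, and Sld5 14026, 6706 and 19091. Psf2 had a summit in replicate 1 only, at rank 5971.

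PolD2, the second subunit of polymerase delta, had the strongest peak of the polymerase genes, with 1.86, 2.47 and 2.86 in replicates 1, 2 and 3 (2.40 ± 0.501, SD, n = 3), 90 bp upstream of its start. PolE4 (1.08), Prim1 (1.04), PolE1 (0.919) and PolA1 (0.766) had peaks near or below the list's median. Of these, PolA1, the catalytic subunit of polymerase alpha, had its own start nearest, at 62 bp, and was missing from the strongest list of replicate 2. PolE1 was counted for a summit 1090 bp upstream, between genes, with pnt the nearest start. PolD1, the catalytic subunit of polymerase delta, ranked 4415, 7569 and 8993, and PolA2 ranked 3797, 11905 and 11193, so that both were among the strongest 5809 in replicate 1 alone. Prim2 and PolD3 had a summit in replicate 1 only, at ranks 15795 and 28059. PolE2 had none in any list.

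PCNA2 had 1.27, 1.65 and 1.98 (1.63 ± 0.359, SD, n = 3), at the start of CG10366. PCNA, the sliding clamp, was counted for a peak 1102 bp upstream at the start of the ribosomal protein gene RpS18. Its relative signal was 1.75, 0.552 and 0.209 in replicates 1, 2 and 3 (0.838 ± 0.810). That peak rested mainly on replicate 1 and was not found in replicate 3. Of the clamp loader genes, Gnf1, the large subunit, ranked 10620 and 18281 in replicates 1 and 3. RfC38 ranked 15740 and 6101 in the same replicates and RfC4 20618 and 21469, while RfC3 had no summit in any list. RPA2 ranked 17363 in replicate 3 alone, and RPA3 ranked 7731 in replicate 1 and 25666 in replicate 3.

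**Figure D3:**
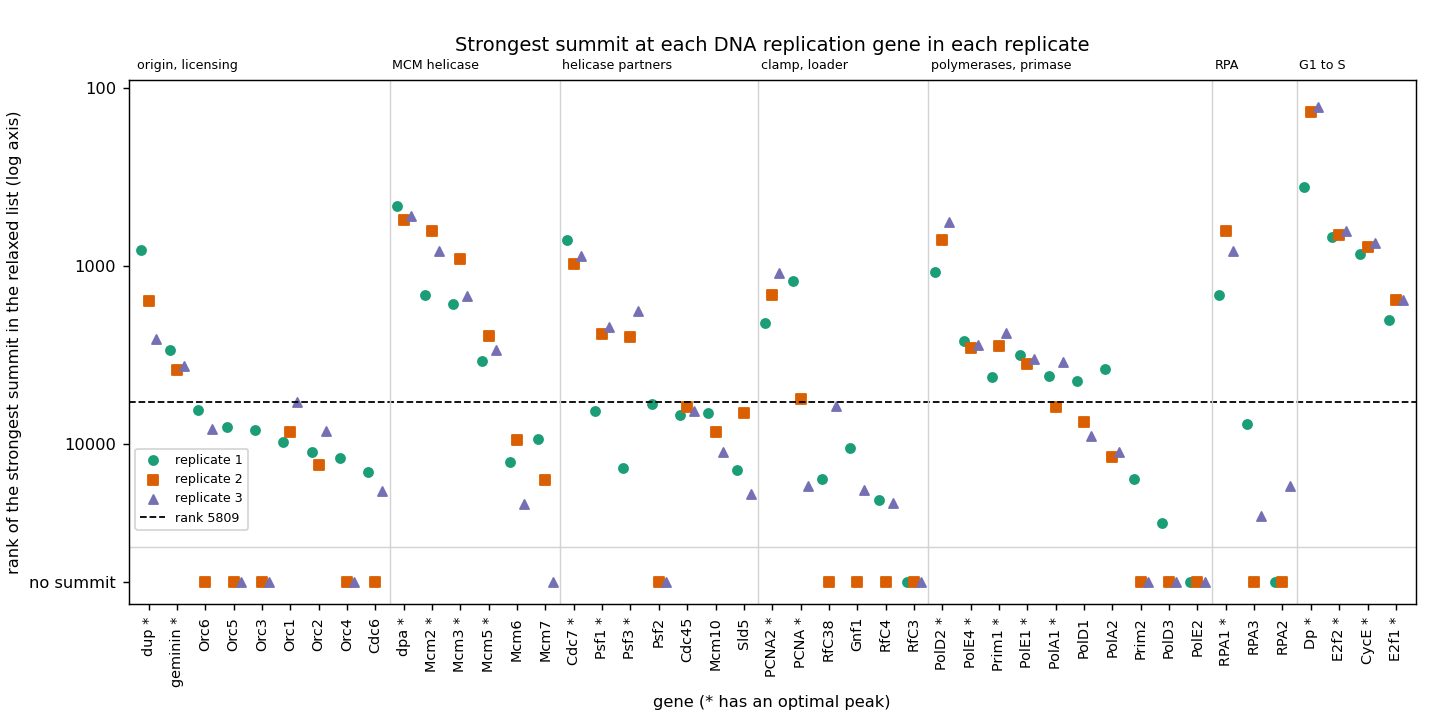
Rank of the strongest summit in the body or 2000 bp upstream of each of the 45 replication genes in the relaxed list of each replicate (log axis, strongest at the top), grouped by step of the pathway. The dashed line is rank 5809, a star marks genes with an optimal peak, and the bottom row marks genes with no summit. No origin recognition gene reaches the line in any replicate, the nearest being Orc1 at 5812 in replicate 3.

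The relaxed lists hold peaks and background, and in them the replication genes differed between replicates. A summit was present at 42 genes in replicate 1 (93.3%, beside 69.0% of all protein-coding genes), at 30 in replicate 2 (66.7%, beside 63.9%) and at 36 in replicate 3 (80.0%, beside 64.9%). At 29 genes every replicate had one (64.4%, beside 48.3%). The lists differ in length, with 30000, 27570 and 25725 summits, so the shares are not comparable between replicates. Counting only summits within 500 bp of a gene's own starts, the replication genes had one at 88.9%, 57.8% and 62.2%, beside 55.4%, 40.6% and 45.3% of all genes. In the authors' relaxed list of pooled reads 66.7% had such a summit, beside 44.1%, and 31 genes had one anywhere in the body or upstream region (68.9%, beside 61.0%). Among genes with no optimal peak, 10 of 24 replication genes had a summit of the pooled list (41.7%, beside 40.7%), a share near the background.

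Many of the peaks stood at the start of a neighbour. Taking each gene with each of its peaks, the nearest start was the gene's own in 14 of 30 pairs (46.7%), beside 58.9% of 7523 pairs over all protein-coding genes. The 9 genes with such a peak were Cdc7, CycE, Dp, E2f1, Mcm2, PolA1, PolD2, dpa and geminin. When a peak in the same region counted only for the gene whose coding start was nearest, these 9 of the 45 replication genes had a peak (20.0%), beside 23.0% of all protein-coding genes. With the nearest coding start at any distance there were 10 (22.2%, beside 26.8%). The added gene was PolD3, which has no optimal peak in its body or the 2000 bp upstream. Under both rules the replication genes no longer lay above all genes, and the first share was near the background. Counting peaks within 500 bp of any of a gene's own starts, a rule added after the data had been seen, gave 17 genes (37.8%, beside 23.9%).

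**Figure D4:**
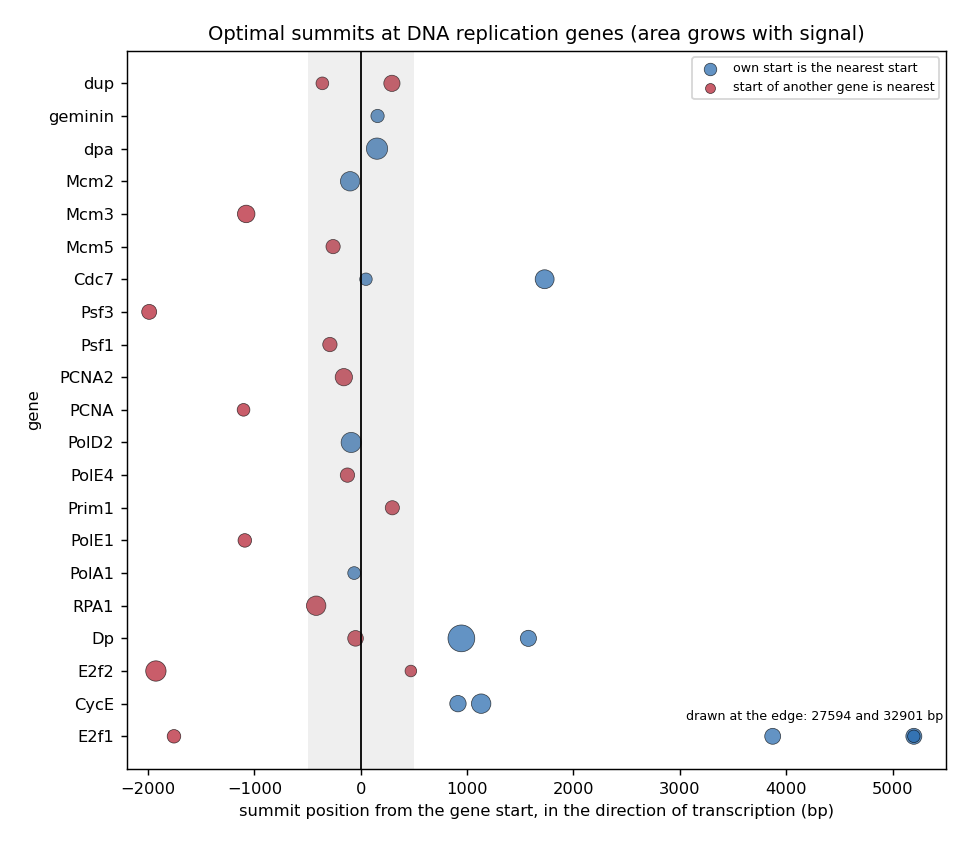
Position of each optimal summit from the first start of its replication gene, in bp along the direction of transcription, with area growing with relative signal and the band marking 500 bp on either side of the start. Blue summits have a start of the gene itself nearest and red ones the start of another gene, and the E2f1 summits at 27594 and 32901 bp are drawn at the right edge. The intronic summits of CycE, Cdc7 and Dp stand to the right, while the summits of Psf3, E2f2, E2f1, PCNA, PolE1 and Mcm3 over 1 kb upstream are all nearest to another gene.

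The replication genes sit closely packed with other genes. A coding gene on the other strand began within 1000 bp upstream at 26 of the 45 (57.8%), beside 33.3% of all protein-coding genes. Of these 26 head-to-head genes 11 had an optimal peak (42.3%, beside 51.3% of all head-to-head genes), and of the other 19 genes 10 had one (52.6%, beside 25.7%). Restricted to peaks within 500 bp of an own start, the shares were 38.5% of the head-to-head replication genes, beside 42.2%, and 36.8% of the others, beside 14.8%. The replication genes thus lay above all genes only in the set without a head-to-head neighbour, to which the regulators CycE, Dp, E2f1 and E2f2 belong. That set was not free of close neighbours. Own-start peaks of E2f2, dup and Prim1, all in that set, had another gene's start nearest: Mpp6 at 10 bp, SRPK at 29 bp and CG7083 at 174 bp. The Dp peak near its first start had Fsn nearest, at 46 bp. Just inside the 2000 bp limit were the summits of E2f1 at -1756 bp, E2f2 at -1926 bp and Psf3 at -1989 bp. Just outside were those of Cdc45 at -2711 bp and Sld5 at -2750 and -2950 bp, and a summit of relative signal 4.82 lay at -3938 bp from Orc1, at the start of Drat.

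The sequences at 5 summits are shown, those of PolD2, CycE, Mcm2 with RPA1, and Cdc7 as strong peaks with a replication gene's start nearest, and that of Mcm5 as one that holds a shared word in both orientations. Each is the reference of dm6 (RefSeq), plus strand, 5′ to 3′, with 30 bases on each side of the summit, and capitals mark CGATA or its reverse complement TATCG. The positions are chr3L:1775513-1775573 for PolD2, chr2L:15746988-15747048 for CycE, chr3R:8264840-8264900 for Mcm2 and RPA1, chrX:6656240-6656300 for Cdc7 and chr3R:10788234-10788294 for Mcm5.
PolD2: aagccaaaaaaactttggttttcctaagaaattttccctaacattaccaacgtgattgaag
CycE: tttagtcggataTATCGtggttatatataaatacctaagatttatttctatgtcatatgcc
Mcm2 and RPA1: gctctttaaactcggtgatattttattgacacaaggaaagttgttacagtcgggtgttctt
Cdc7: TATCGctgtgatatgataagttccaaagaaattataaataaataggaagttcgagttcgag
Mcm5: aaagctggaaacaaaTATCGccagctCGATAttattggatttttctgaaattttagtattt
The word CGATA, on either strand, was within 100 bp of 16 of the 29 summits (55.2%), beside 38.0% of all optimal promoter peaks and 28.0% of all optimal peaks. The full DRE was within 100 bp of 2 summits (6.90%, those at Mcm3 and PolA1), beside 7.56% of promoter peaks and 3.79% of all peaks, a share near that of promoter peaks. The homeodomain word TAATTA was within 100 bp of 4 summits (13.8%), beside 18.4% and 18.1%. The E2F words TTTCGCGC, TTTGGCGC, TTTCCCGC and TTTGCCGC, counted as a set, were near 4 summits (13.8%; dpa, Cdc7, dup and Prim1), beside 3.30% and 2.93%. With 29 peaks a single peak moves such a share by 3.45 percentage points. Counts were made for 11 sets of words, and not all are given here. CGATA was also common in promoters, from 250 bp before to 50 bp after the gene start. It was present at 27 of the 45 replication genes (60.0%), beside 47.3% of all protein-coding genes. Of the 17 with a peak within 500 bp of an own start, 8 had it (47.1%), and of the 28 without, 19 (67.9%). Over all protein-coding genes the order was the reverse, 56.5% with such a peak and 44.5% without.

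The promoters of the replication genes held DRE and E2F words more often than those of all genes. In the window from 250 bp before to 50 bp after the gene start, the DRE was present at 14 of 45 replication genes (31.1%), beside 9.36% of all protein-coding genes. An E2F word was present at 18 (40.0%, beside 6.41%), and both kinds at 7 (15.6%, beside 0.587%). The 7 with both were Orc3, Orc5, PolD3, PolE2, Prim2, Psf1 and Sld5, and of these Psf1 alone had an optimal peak, within 500 bp of its start. Of the 14 replication genes with a DRE, 3 had an optimal peak within 500 bp of an own start (21.4%: PolA1, PolE4 and Psf1), beside 38.9% of all genes with a DRE. Of the 25 replication genes with either kind of word 6 had such a peak (24.0%, beside 33.5% of all genes with either). Of the 20 with neither, 11 had one (55.0%, beside 22.2%). By the count used first, a summit in the gene or the 2000 bp before it, 10 of the 25 with either word had a peak (40.0%, beside 44.2% of all genes with either), a share near the background. Of the 20 with neither, 11 had a peak by that count (55.0%, beside 32.5%). The words were sought at the first start of each gene, while peaks could stand at any of its starts. The 11 genes with neither word thus include dpa, dup and Prim1, which have an E2F word within 100 bp of a summit. They also include all 4 regulators of S phase entry, CycE, Dp, E2f1 and E2f2. By the count at own starts, E2f2 is among them only through its peak of 0.551, found in replicate 3 alone. The comparison was drawn up after the values were seen, and it rests on few genes.

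The promoter sequences show DREs on both sides of this count. The first 5 below have a DRE and no optimal peak, and the last 2 have a DRE and a peak. The summit of Psf1 had no DRE within 100 bp, and stood 53 bp from the start of Sac1. Each is dm6 (RefSeq), 5′ to 3′ on the strand of the gene, with the DRE in capitals and, for Psf1, also the E2F word TTTGGCGC. The positions are chr3R:13964654-13964721 (plus) for Orc2, chr2L:13829742-13829804 (plus) for Orc5, chr3R:4906526-4906593 (plus) for Gnf1, chr3R:27239117-27239162 (plus) for PolA2, chr3L:20361586-20361648 (minus) for Prim2, chr3R:21671776-21671843 (minus) for PolA1 and chr3L:1247720-1247787 (minus) for Psf1.
Orc2: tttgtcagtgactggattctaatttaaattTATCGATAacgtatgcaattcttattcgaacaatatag
Orc5: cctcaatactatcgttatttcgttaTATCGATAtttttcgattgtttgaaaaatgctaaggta
Gnf1: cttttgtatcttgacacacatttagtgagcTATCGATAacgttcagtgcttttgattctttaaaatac
PolA2: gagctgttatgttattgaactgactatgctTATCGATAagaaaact
Prim2: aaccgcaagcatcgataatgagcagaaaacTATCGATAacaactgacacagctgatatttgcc
PolA1: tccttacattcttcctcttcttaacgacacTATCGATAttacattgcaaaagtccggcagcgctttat
Psf1: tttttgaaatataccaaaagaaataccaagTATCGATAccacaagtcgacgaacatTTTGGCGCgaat
The DRE lay close before the start in most of these, at -62 bp in Gnf1, -66 bp in Orc5, -12 bp in PolA2 and -29 bp in Prim2. PolA1 held 3 copies in its window, at -193, -59 and -6 bp, and the copy shown lay 2 bp from its summit (-2 bp). Its relative signal was low in each replicate, with 0.793, 0.502 and 0.879 in replicates 1, 2 and 3 (0.725 ± 0.198, SD, n = 3).

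**Figure D5:**
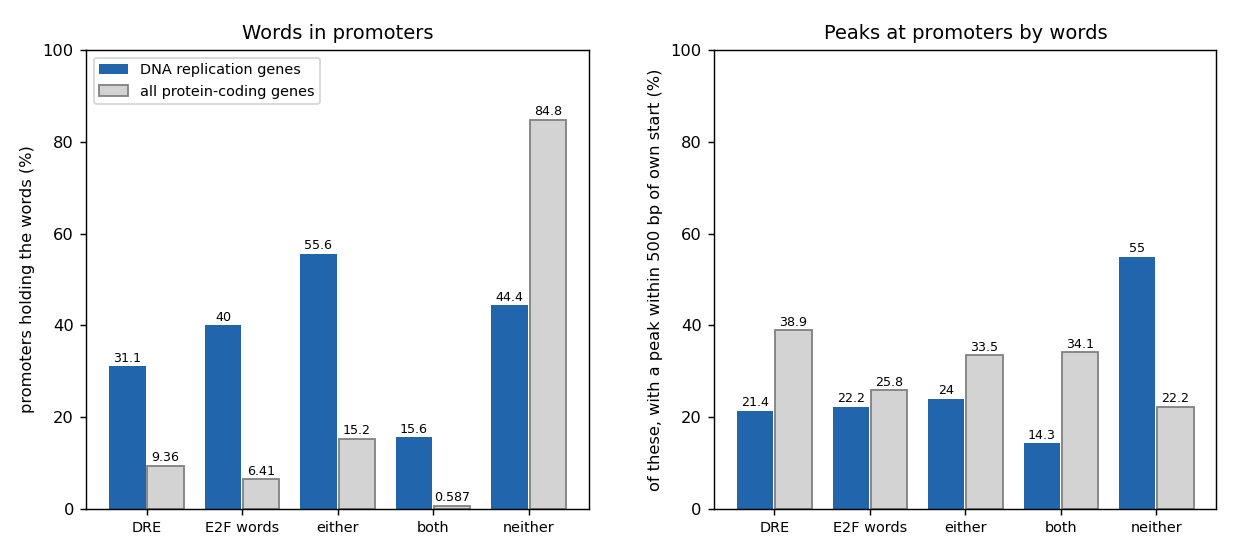
Left, share of promoters (250 bp before to 50 bp after the gene start) that held a DRE, an E2F word, either, both or neither, in percent, for the replication genes (blue, left bar) and all protein-coding genes (grey, right bar). Right, of those genes, the share with an optimal peak within 500 bp of an own start. The replication genes exceed all genes for each kind of word on the left (31.1% and 9.36% for the DRE), while on the right they exceed them only for genes with neither word (55.0% and 22.2%). The genes with neither word and such a peak include CycE, Dp, E2f1 and E2f2, the last through a weak peak found only in replicate 3.

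Other genes of replication, from 4 lists chosen with earlier results of these data known, had an optimal peak at 31 of 62 genes, beside 34.2% of all protein-coding genes. The partners of the fork had one at 7 of 13 (53.8%). The strongest was in an intron of chif, the fly partner of Cdc7 (chiffon), with 7.03, 7.41 and 6.71 in replicates 1, 2 and 3 (7.05 ± 0.347, SD, n = 3), above every peak of the 45 genes. Top1, the topoisomerase that relaxes DNA ahead of the fork, followed with 2.12, 2.74 and 2.63 (2.50 ± 0.332). The genes of nucleotide supply and chromatin assembly had a peak at 5 of 15 (33.3%). Among them were RnrS, the small subunit of ribonucleotide reductase, with 3.11, 3.56 and 4.02 (3.56 ± 0.452), and dUTPase with 1.57, 1.68 and 1.74 (1.66 ± 0.0833). The cell cycle kinases, cyclins and their regulators had one at 9 of 22 (40.9%), and for 6 of the 9 the strongest was nearest to another gene's start. The checkpoint kinase gene mei-41 led them with a relative signal of 2.21, at the start of TH1, while Cdk2, the partner of CycE, and CycA, CycB and CycD had none.

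The list with the highest share was that of the dREAM complex, in which E2f2 and Dp act with Myb and Rbf proteins, and of factors at replication gene promoters, with a peak at 10 of 12 (83.3%), all but Myb and Rbf. For 7 of the 10 (M1BP, Rbf2, Trf2, lin-52, mip120, mip130 and mip40) the strongest peak had another gene's start nearest. Caf1-55, which is also a subunit of dREAM, was placed in the chromatin assembly list and had no peak. M1BP, a factor of promoters with a motif of its own, had 2.78, 3.76 and 3.18 (3.24 ± 0.492, SD, n = 3), nearest to the start of CG8202. lin-52, a core subunit of dREAM, had 2.45, 2.96 and 3.38 (2.93 ± 0.469), nearest to CG15771. mip40 had 2.47, 2.22 and 2.45 (2.38 ± 0.139) in an intron, with the start of Tab2 nearest. BEAF-32, an insulator protein, had 1.61, 2.24 and 2.08 (1.98 ± 0.328) at its own start, and Dref, which binds the DRE, had 2.19, 1.18 and 1.27 (1.55 ± 0.563) at its own start. The gene of ind itself had no optimal peak.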

How the data were processed

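The peak lists were made by the authors from ChIP-seq reads. Per the notes deposited with the lists, each replicate gave a relaxed list of peaks and background against 1 control, the pooled reads gave another, and the optimal list was derived from these by the irreproducible discovery rate. The sources used here give no aligner, peak caller or read depth, so no counting interval is given. Signal values were deposited by the authors in a unit not defined in the lists, on a scale that differs between them. The deposited −log10 q-value served only in an alternative with a minimum of 2.

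Only the dm6 lists were used. Summits, 1-based, were joined to genes of Ensembl BDGP6.54 (release 115) and to the RefSeq sequence of the same assembly, with Python 3.11.15, numpy 2.4.6, pandas 2.3.3 and matplotlib 3.10.9. A promoter was 500 bp on each side of any annotated start. A peak was found in a replicate when a summit lay within 200 bp among that replicate's 5809 strongest. Words were sought on both strands, and words that overlap were each counted (TATCGATA holds ATCGAT and CGATA). The code was tested on simulated data with known answers.

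Errors are SDs over 3 replicates. Each member gene was accounted for. Up to 4 genes per list were to be named by strongest peak, and any other was named after its values were seen. Members and lists were chosen with earlier results of these data known. The rules of peaks at own starts and of the nearest coding start within the region, the head-to-head division and the comparison of promoter words with peaks were chosen after seeing the data.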

Additional observations from a re-analysis of the deposited data

How the results depend on the processing

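The share of replication genes with an optimal peak, 46.7%, became 20.0% with no upstream region (13.8% of all genes), 37.8% with 500 bp (29.5%), 53.3% with 5000 bp (42.9%) and 22.2% with the nearest coding start at any distance (26.8%). With the nearest coding start inside the region first used, added after seeing the data, it was 20.0% (23.0%). In these last cases, unlike the others, it lay below all genes. It was 37.8% in the strongest 50% of the list (22.0%), 40.0% with peaks found in all 3 replicates (27.1%), 42.2% with promoter peaks (28.4%), 11.1% outside promoters (10.8%), 37.8% with own starts (23.9%), also added, and 42.2% without any one replicate (27.8% to 30.1%). The mean share over replicates, 45.2%, became 57.0% at a −log10 q of at least 2 (41.6% of all genes) and 80.0% in the full relaxed lists (65.9%), and ran from 44.4% to 45.6% leaving out replicates. The promoter share, 79.3%, became 62.1% within 200 bp of starts (33.6% of all optimal peaks) and 86.2% within 1000 bp (58.6%). It was 75.0% in the strongest 50% (55.4%), and 76.0% to 76.9% leaving out replicates (48.4% to 51.6%). The median relative signal, 1.37, became 1.21 against promoter peaks, 1.51 over the strongest peak per gene, and 1.28 to 1.36 leaving out replicates. The DRE share, 6.90%, became 20.7% with the core ATCGAT, and ran from 3.85% to 8.0% leaving out replicates, so that on 29 peaks it is not firm. The share found in all replicates, 82.8%, became 62.1% with an overlap of at least 50% of both intervals (48.6% of all optimal peaks). It was 100% in the full lists (96.5%), and 86.2% to 89.7% over pairs of replicates (73.5% to 83.3%). Except where the settings themselves set the count, the cause was not tested. No paired analysis was possible because all samples form 1 group. Read depth is unknown, and a gene without a peak may hold binding below the threshold.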
